A study of Mus musculus with 9 samples.

Results

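The genes described here are the 38 markers of blood and lymphatic endothelium, with the VEGF, angiopoietin and apelin signals that act on these cells, among the 29205 genes measured in mouse back skin. They were chosen by name. The classes were 22 genes of blood endothelium (4 of them receptors and 5 of them transcription factors), 5 of lymphatic endothelium, 6 ligands, 8 receptors and 2 selectins, and a receptor can also stand in a vessel class. RNA of 9 back skin samples was sequenced, with 3 libraries in each of 3 groups. All mice were male BALB/c mice aged 6 to 8 weeks, kept free of specific pathogens and given 7 days to adapt, and the back of every mouse was shaved and depilated. The control group received nothing further (its treatment is labelled blank). Mice of the IMQ group received 62.5 mg of 5% imiquimod (IMQ) cream on the back each day for 5 days. IMQ activates Toll-like receptors, and its cream gives the skin psoriasis-like lesions. The LYS group received the same cream and also Longkui Yinxiao soup (LYS), a herbal decoction, which per the study's methods was given by gavage at the higher of its doses. Skin was collected on day 13. The samples were whole back skin with every cell type in it, and the labels do not tie a library to a mouse, so p-values measure the spread between these libraries.

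As background, blood vessels of the skin are lined by endothelial cells that are held together by junction proteins such as VE-cadherin. VEGF proteins bind receptor kinases on these cells and drive vessel growth, while the angiopoietins act through the receptor TIE2, on which ANGPT1 steadies vessels and ANGPT2 can loosen them. Lymphatic endothelium depends on the transcription factor PROX1 and on VEGF-C with its receptor VEGFR3. Widened, leaky vessels in the upper dermis are a known feature of psoriatic skin.

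All 38 genes passed the filter on low counts in every comparison, and the lowest count of any of them in any library was 14. Levels between libraries are given as CPM (counts scaled to library size), scaled by the TMM method, and levels between genes as the FPKM of the deposited table, which corrects for gene length. In the control group the highest mean FPKM belonged to Plvap, with 126 ± 22.3, followed by Sox18 with 37.3 ± 5.56, Vegfb with 35.7 ± 9.995, Eng with 34.1 ± 2.95, Cdh5 with 33.7 ± 5.07 and Pecam1 with 30.7 ± 4.27 (SD, n = 3). Plvap stood clear of the others, and each of the next 5 differed from its neighbour in this order by less than their SD. The lowest levels were those of Flt4, with a mean FPKM of 2.04 ± 0.264, and Prox1, with 0.384 ± 0.0513. Of the defining markers, Pecam1, Cdh5, Plvap and Lyve1 were among the 7 highest genes of the set in control skin, and no gene of the set was at 0 in any library.

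Summed counts ranged from 14658645 to 19609878 per library, with group medians of 18123424 (control), 17005853 (IMQ) and 15877301 (LYS). Between 0.0617% and 0.248% of a library's counts fell on the 38 genes. A few libraries stood apart from their group over these genes. IMQ 1 was the highest IMQ library for 35 of the 38 genes, and LYS 1 was the lowest LYS library for 34. Within the control group, control 2 was the highest for 28 and control 3 the lowest for 32. Calls that changed without IMQ 1 or LYS 1 are therefore given beside the results.

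Most endothelial genes made up a smaller share of the RNA in IMQ skin than in control skin. Calls were made with edgeR's quasi-likelihood test over all genes tested and needed an adjusted p below 0.05 together with a log2 fold change beyond 0.58 either way. Of the 38 genes 29 fell in IMQ against control and 1, Sox7, rose, against 26.9% of the 15976 genes tested that were called lower and 24.1% called higher. The median log2 fold change of the 38 genes was -1.01, while that of all genes was -0.06. For 30 of the genes the CPM ranges of both groups were apart, where 35.9% of all genes tested were apart and lower, and 34.1% apart and higher. Without scaling beyond library totals the median of all genes moved to -0.51 and that of the 38 genes to -1.44, 32 of the genes fell and 1 rose (42.9% and 15.0% of all genes), and the calls over all genes went from 47.3% higher to 25.9% higher. The 8 genes that were not called were Tie1, Vwf, Egfl7, Aplnr, Vegfa, Prox1, Sele and Selp. Without IMQ 1, Tie1, Egfl7, Aplnr, Sele and Selp were called lower as well and Vegfa was called higher, so that 2 genes rose (25.4% of all genes). CPM give a gene's share of a library. In bulk skin, fewer endothelial cells, less RNA per endothelial cell and more RNA from other cells can therefore not be told apart. Of the 29 calls 19 were kept under every alternative, and the other 10 (Angpt2, Apln, Eng, Fli1, Flt4, Icam2, Kdr, Nos3, Robo4 and Sox17) were lost under at least 1, each time with a library left out. The count was 22 without control 1, 21 without control 2, 27 without control 3, 34 without IMQ 1 (28.8% of all genes), 21 without IMQ 2 and 23 without IMQ 3, and the log2 fold changes of the lost calls lay between -1.24 and -0.56. Over all genes tested, 4291 were called lower with every library kept. That number was 3728, 3808 and 4045 without control 1, 2 and 3, and 4731, 3760 and 3842 without IMQ 1, 2 and 3.

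**Figure D1:**
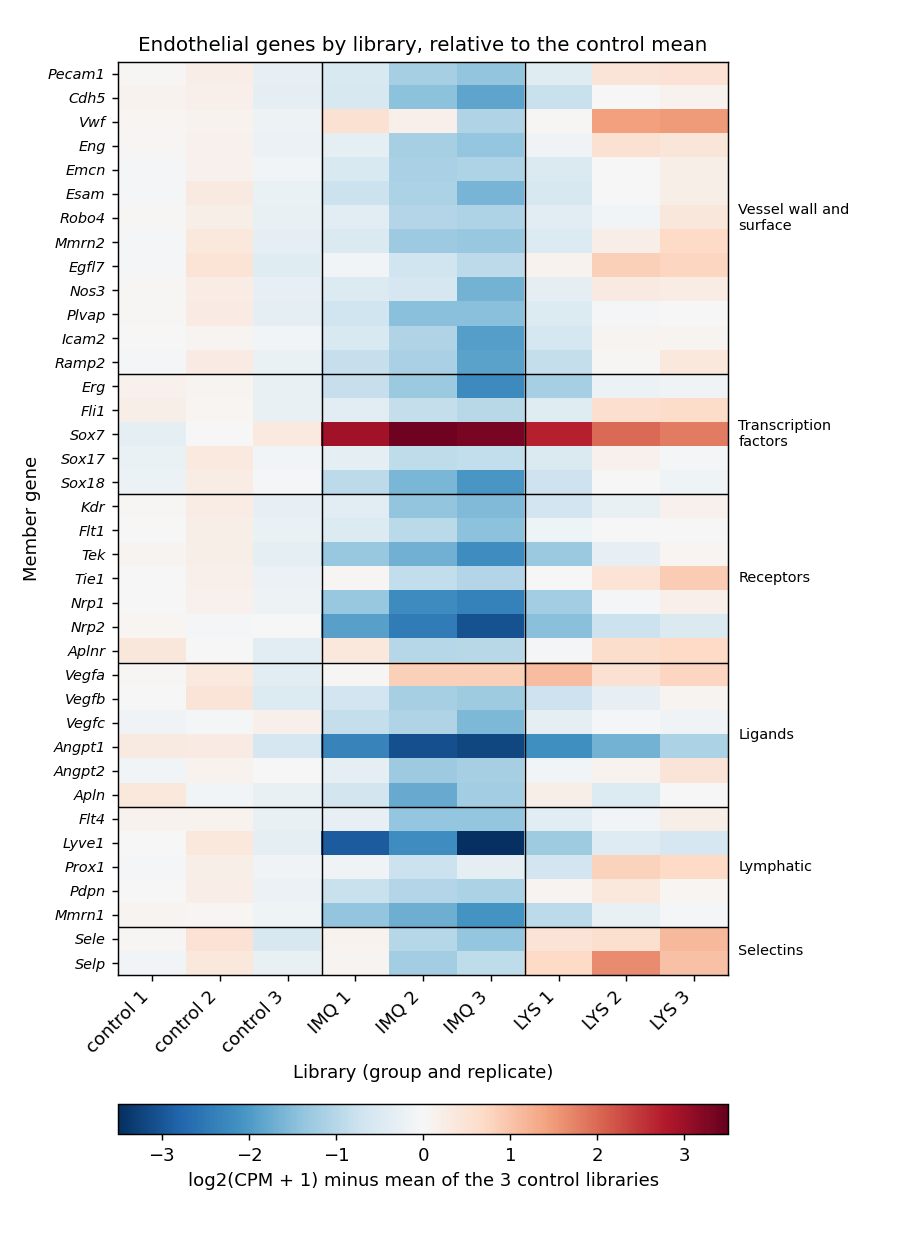
Each cell shows the log2(CPM + 1) of a gene (rows, grouped by role) in a library (columns) minus the mean of the 3 control libraries, in blue where lower and in red where higher. Most rows turn blue in IMQ 2 and IMQ 3, less so in IMQ 1, and are near white in LYS 2 and LYS 3, while Sox7 is red in all 6 libraries from IMQ-treated mice.

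In LYS skin most of these genes were measured at higher levels than in IMQ skin, but none was called. For LYS against IMQ, 37 of the 38 fitted values were above 0 and that of Sox7 was below 0, with a median log2 fold change of 1.20 against 0.04 for all genes. The called counts were 0 higher and 0 lower, as for all 15460 genes tested (0% called), with 0.0591 as the lowest adjusted p in edgeR. By unadjusted p below 0.05, 31 of the 38 were higher and 1 was lower, against 19.3% and 15.9% of all genes tested. The groups did not overlap for 23 higher genes and for 1 lower, beside 16.8% and 22.1% of all genes. Under DESeq2, 28 genes were called higher and 1 lower, where 12.8% and 9.18% of the genes with an adjusted p were called. A single edgeR fit of the 9 libraries gave 25 and 1 (9.93% and 8.62% of all genes), and with no filter on low counts also 25 and 1 (5.30% and 3.53%). RLE scaling, no scaling beyond library totals and a replicate block each called 0 of all genes tested. Their lowest edgeR adjusted p were 0.0593, 0.0527 and 0.220. The counts also depended on 2 libraries. Without LYS 1 there were 29 genes called higher and 1 lower (14.9% and 11.9% of all genes), without IMQ 1 there were 26 and 1 (6.80% and 5.03%), and with any other library left out there were 0. Without both, an alternative chosen after seeing the data, 36 genes were called higher and 1 lower (20.7% and 16.0%). Leaving that last one aside, 5 settings had calls: DESeq2, the single fit, no filter, without LYS 1 and without IMQ 1. In all 5 of them, 20 genes were called higher, among them Pecam1, Eng, Plvap, Sox18, Flt1, Nrp1, Nrp2, Angpt1, Lyve1, Pdpn and both selectins. Sox7 was called lower in each. These 5 were picked out by having calls, so their agreement cannot show that a call is stable. None of these genes was called in the edgeR fit of the 6 libraries, with RLE scaling, without scaling or with the replicate block. Leaving out IMQ 2, IMQ 3, LYS 2 or LYS 3 called none of them either.

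LYS skin and control skin were close for most of the set. Against control skin, 4 genes were higher in LYS skin (Sox7, Vwf, Selp and Vegfa) and 2 were lower (Angpt1 and Nrp2), where 15.1% and 12.9% of the 16003 genes tested were called. The median log2 fold change was -0.08, and that of all genes -0.01. Sox7 and Angpt1 were called under every alternative. The others were lost in some, as given with each gene. Without scaling beyond library totals the calls over all genes went from 53.9% higher to 41.5% higher. The count called higher was 1 without control 1 or control 3, 2 without LYS 2 and 8 without LYS 1 (15.5% of all genes), where Tie1, Egfl7, Fli1 and Prox1 were added. Over all genes tested, 2412 were called higher with every library kept, 1502 without control 1, 1946 without control 3 and 1776 without LYS 2. The 3 comparisons share libraries pairwise, so a gene's values in them are not independent of each other.

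**Figure D2:**
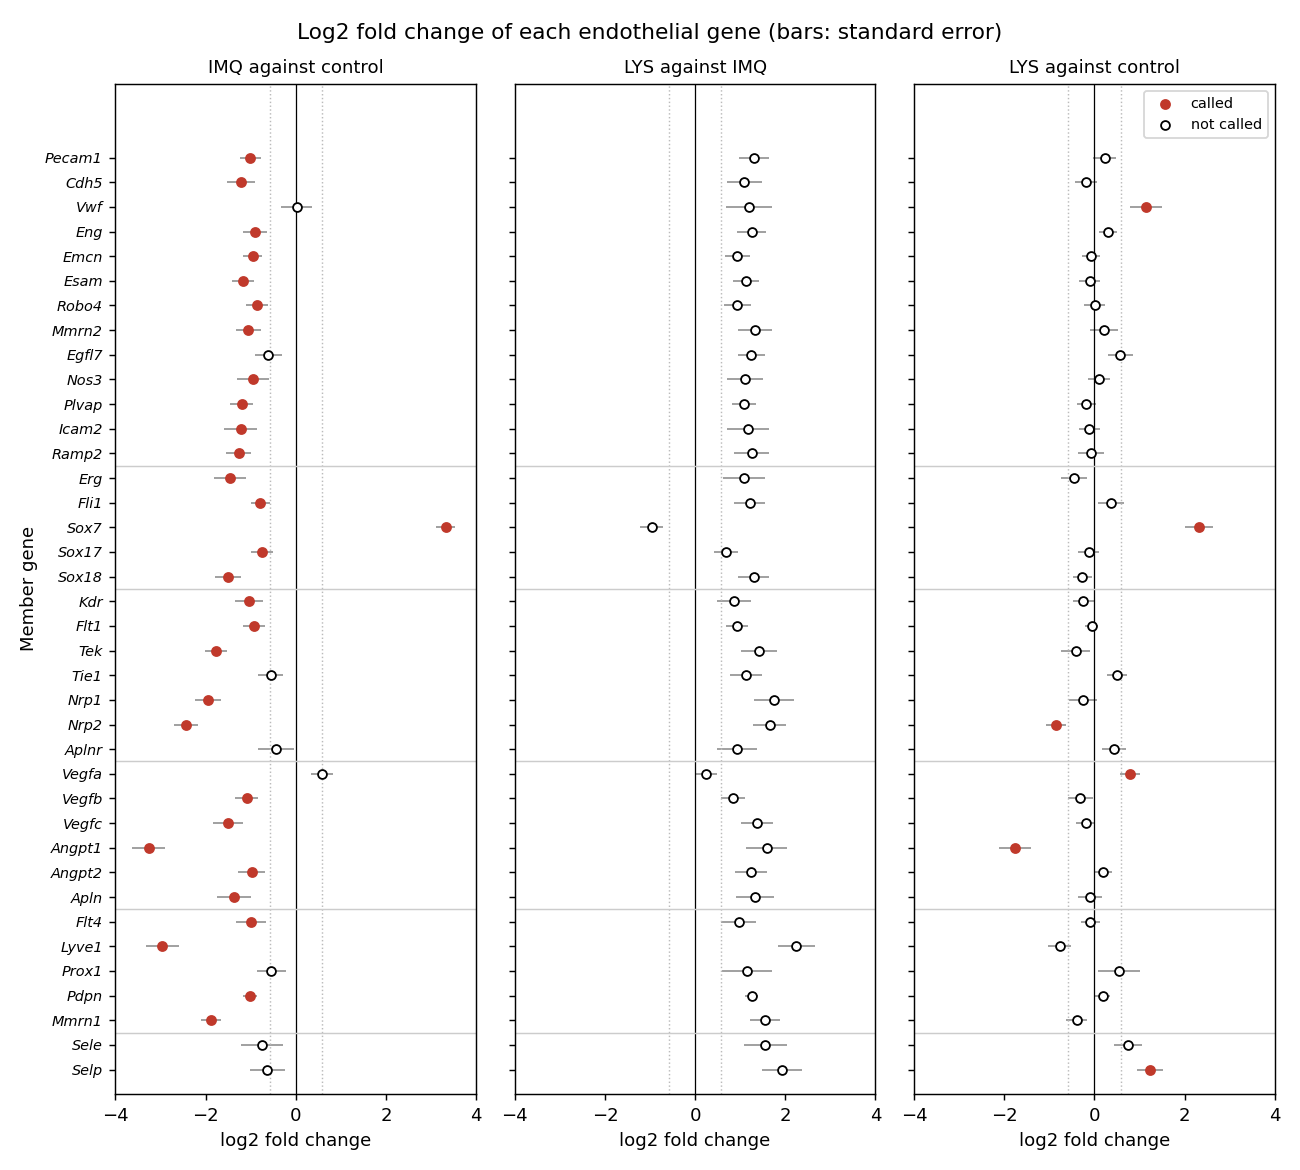
Log2 fold change of each of the 38 genes (rows) in the 3 comparisons (panels), with bars of 1 standard error (SE) from the edgeR fit, filled red where called and open where not, and dotted lines at an absolute log2 fold change of 0.58. In the left panel 29 genes are filled below 0 and Sox7 above it, in the middle panel all points are open and all but Sox7 lie above 0, and in the right panel 6 genes are filled.

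Genes of the vessel wall and cell surface were the largest role, with 13 members. Of these 11 fell in the IMQ group and 2, Vwf and Egfl7, were not called, where 26.9% of all genes tested were called lower. Pecam1 (CD31, an adhesion protein at endothelial contacts, chromosome 11, 106654217 to 106750628 in GENCODE M21 on GRCm38) had 172, 195 and 136 CPM in control 1 to 3, 113, 73.8 and 63.4 in IMQ 1 to 3 and 123, 228 and 237 in LYS 1 to 3. All IMQ libraries lay below all others, and LYS 1 lay just below the control range. Its log2 fold change, with the standard error (SE) of the fit, was -1.01 in IMQ against control (SE 0.23, edgeR adjusted p = 0.00630) and 1.30 in LYS against IMQ (SE 0.33, edgeR adjusted p = 0.0610). Cdh5 encodes VE-cadherin, which joins endothelial cells to each other. Its CPM was 134, 140.0 and 97.8 in the control libraries, 82.3, 45.1 and 33.5 in the IMQ libraries and 70.6, 122 and 134 in the LYS libraries. LYS 1 fell within the IMQ range, while LYS 2 and LYS 3 were at control levels. It fell by 1.21 on the log2 scale in the IMQ group (SE 0.31, edgeR adjusted p = 0.0106), and its value in LYS against IMQ was 1.09 (edgeR adjusted p = 0.0987).

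Plvap, which forms the diaphragms of fenestrated and transcytosing endothelium and was the most abundant of the set, had 223, 264 and 169.5 CPM in the control libraries, 132, 77.3 and 77.3 in the IMQ libraries and 155, 210.2 and 213 in the LYS libraries. The IMQ libraries were again the lowest, with IMQ 1 above the other two. Its log2 fold change was -1.20 in IMQ against control (edgeR adjusted p = 0.00410) and 1.08 in LYS against IMQ (edgeR adjusted p = 0.0606). The other genes of this role that fell, with log2 fold changes of -1.26 to -0.86, were Ramp2 (a partner of the adrenomedullin receptor), Icam2 (an adhesion protein), Esam (a junction protein), Mmrn2 (a matrix protein of vessels), Emcn (a sialomucin of capillaries and veins), Nos3 (the endothelial nitric oxide synthase), Eng (a BMP co-receptor) and Robo4 (a guidance receptor of endothelium). The 13 values in LYS against IMQ lay between 0.93 for Robo4 and 1.33 for Mmrn2, with edgeR adjusted p of 0.0606 to 0.144. Ramp2 shares 33.4% of its exon bases with Vps25 on the same strand, and Nos3 25.2% with an antisense gene, so part of their counts could belong to those genes.

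Vwf, which encodes the von Willebrand factor stored in endothelial granules and in platelets, did not follow the rest. Its CPM was 72.4, 74.6 and 60.5 in the control libraries, 100.03, 78.1 and 32.8 in the IMQ libraries and 71.2, 189 and 197 in the LYS libraries. IMQ 1 and IMQ 2 lay above the control range and IMQ 3 below it, while LYS 2 and LYS 3 were the highest of all and LYS 1 lay among the controls. The log2 fold change was 0.02 in IMQ against control (SE 0.34, edgeR adjusted p = 0.967), 1.19 in LYS against IMQ (edgeR adjusted p = 0.144) and 1.14 in LYS against control (SE 0.35, edgeR adjusted p = 0.0405). Without IMQ 1 the first was -0.31 and not called. The last value was called although the groups overlapped. It was 1.49 without LYS 1 (edgeR adjusted p = 0.000309) and was not called without control 1, control 2, control 3, LYS 2 or LYS 3, where it lay between 0.92 and 1.20, nor without scaling (1.03), with all 9 libraries in a single fit (1.14) or with the replicate block (1.02). Egfl7, a secreted vessel factor, had a log2 fold change of -0.61 in IMQ against control (edgeR adjusted p = 0.113) and 1.25 in LYS against IMQ (edgeR adjusted p = 0.0606). The first was -0.91 and called lower without IMQ 1 (edgeR adjusted p = 0.0229). The platelet markers Pf4, Ppbp, Itga2b and Gp9 summed to 41.8 to 71.5 CPM among controls, 16.3 to 28.2 among IMQ libraries and 42.0 to 63.8 among LYS libraries, none of them without counts in a group. By mean CPM among controls, Pf4 held 53.2 of the 61.2. Pf4 was called lower in IMQ against control (-1.79), while Ppbp (-0.08) and Itga2b (-0.52) were not called. Gp9 did not pass the filter on low counts there. The part of these markers in the Vwf values was not tested.

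**Figure D3:**
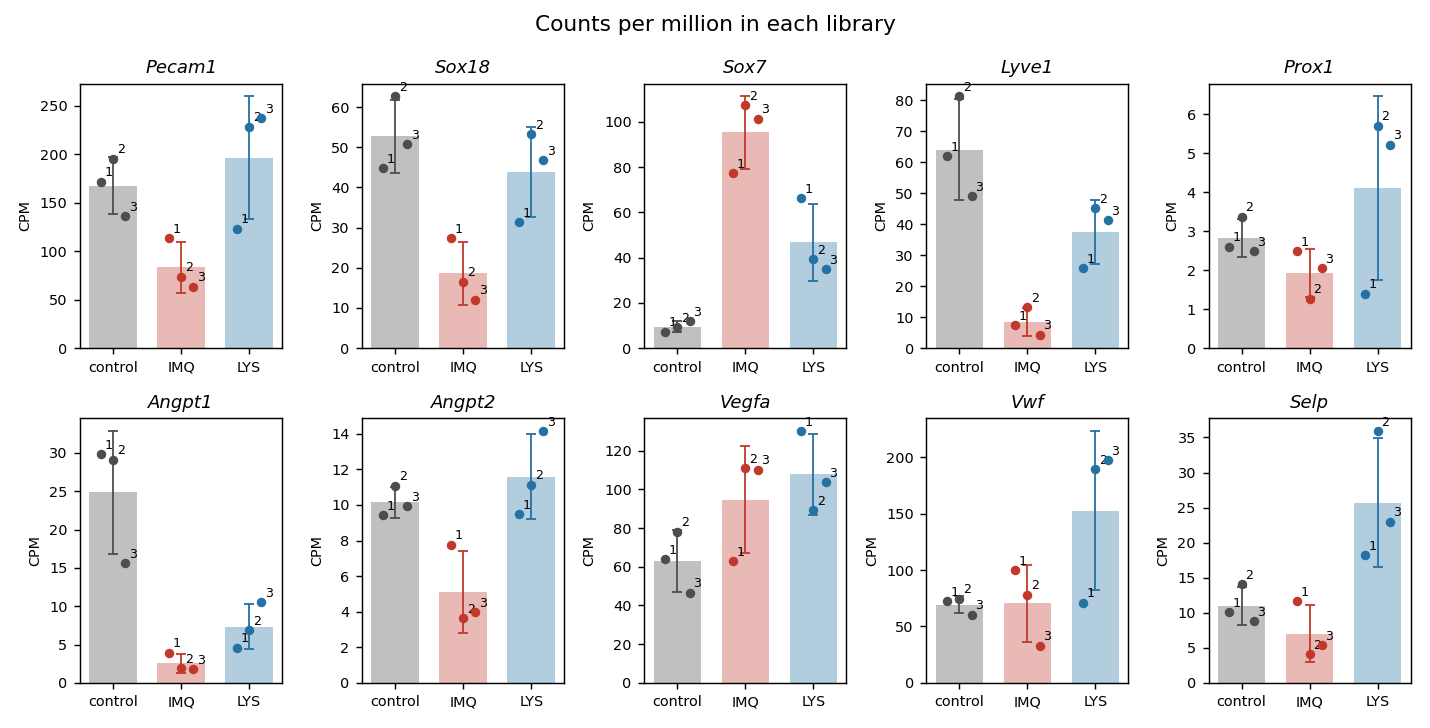
CPM of 10 genes in each library (points, labelled with the replicate number), with bars for the group mean and error bars of 1 SD (n = 3), each panel with its own axis from 0. Sox7 is at 77.3 to 107 CPM in the IMQ libraries and at most 11.98 in the controls, Lyve1 and Angpt1 are lowest in the IMQ libraries, and Vwf and Prox1 are spread widely in the LYS group with LYS 1 lowest.

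The transcription factors split. Erg and Fli1 belong to the ETS family and keep endothelial identity, and Sox7, Sox17 and Sox18 form the SoxF group that acts in vessel and lymphatic development. In the IMQ group 4 of the 5 fell and Sox7 rose, and the groups did not overlap for any of them. Of all genes tested, 26.9% were called lower and 24.1% higher, and 35.9% were apart and lower and 34.1% apart and higher. Sox7 (chromosome 14, 63943673 to 63950732) had 7.20, 9.19 and 11.98 CPM in the control libraries, 77.3, 107 and 101 in the IMQ libraries and 66.4, 39.3 and 34.97 in the LYS libraries. Every IMQ library exceeded every LYS library, and every LYS library exceeded every control library, with LYS 1 nearest to the IMQ group. It rose 10-fold in the IMQ group, which is 3.32 on the log2 scale (SE 0.22, edgeR adjusted p = 2.14e-05). The value was -0.96 in LYS against IMQ (SE 0.25, edgeR adjusted p = 0.0633), with a range of -1.43 to -0.71 and adjusted p of 0.00128 to 0.220 over the alternatives. In LYS against control Sox7 remained higher, with a log2 fold change of 2.32 (edgeR adjusted p = 0.00210). By mean FPKM it went from 3.31 ± 0.949 in the control group to 23.99 ± 2.26 in the IMQ group, where only Plvap was higher among the 38 genes. Keratinocyte markers rose with it in the IMQ group. Krt5, Krt14, Krt1, Krt10, Dsg1a, Dsg3 and Trp63 summed to 5023 to 8475 CPM among controls, 35922 to 48643 among IMQ libraries and 15799 to 28396 among LYS libraries. All 7 were called higher in IMQ against control (24.1% of all genes tested), and none was without counts. In LYS against IMQ the markers differed, with none called. Krt1, Krt10 and Dsg1a had log2 fold changes of -1.45, -1.62 and -1.24, and Trp63 had -0.57. Krt5, Krt14 and Dsg3 were at -0.19, -0.21 and -0.16. The part of these markers in the Sox7 values was not tested. No exon of Sox7 overlaps another gene of the annotation.

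Sox18, a close relative of Sox7, went the other way. It had 44.9, 62.7 and 50.8 CPM in the control libraries, 27.3, 16.5 and 12.1 in the IMQ libraries and 31.3, 53.3 and 46.8 in the LYS libraries. The IMQ libraries did not overlap the controls, and LYS 2 and LYS 3 reached control levels. Its log2 fold change was -1.50 in IMQ against control (SE 0.29, edgeR adjusted p = 0.00246) and 1.30 in LYS against IMQ (edgeR adjusted p = 0.0635). Erg fell by 1.47 (edgeR adjusted p = 0.00812), Fli1 by 0.78 (edgeR adjusted p = 0.0124) and Sox17 by 0.75 on the log2 scale (edgeR adjusted p = 0.0242). Fli1 was not called without control 1, nor Sox17 without control 2, IMQ 2 or IMQ 3. The values of these 3 in LYS against IMQ were 1.08, 1.21 and 0.68, and the groups overlapped for each of them. An antisense gene shares 16.8% of the exon bases of Sox17, so part of its counts could belong to that gene.

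Promoters of the set, whether the gene was called or not, were read for ETS and SOX motifs, since ERG and FLI1 bind the former. RefSeq promoters (GRCm38.p6) were at hand for 21 of the 38 genes, 27 promoters in all, and the 250 bases before each start were searched. AGGAAG or CGGAAG, on either strand, was found in 12 of the 27 (44.4%) and in 39.2% of all 32851 promoters. ACAATG, on either strand, was found in 2 (7.41%) and in 10.7% of all. The shares of the set are thus near those of all promoters, and a match is a description of the letters only. The sequences printed are those of 3 genes called lower in the IMQ group that have a single listed promoter with an ETS match and no annotated gene body of their own in the window. The capitals mark the matches, which begin 52 and 6 bases before the start of Eng, 129 and 53 bases before that of Flt1 and 113 bases before that of Apln. Eng lies on the plus strand at chr2:32646345-32646594, Flt1 on the minus strand at chr5:147726012-147726261 and Apln on the minus strand at chrX:48034854-48035103.
Eng: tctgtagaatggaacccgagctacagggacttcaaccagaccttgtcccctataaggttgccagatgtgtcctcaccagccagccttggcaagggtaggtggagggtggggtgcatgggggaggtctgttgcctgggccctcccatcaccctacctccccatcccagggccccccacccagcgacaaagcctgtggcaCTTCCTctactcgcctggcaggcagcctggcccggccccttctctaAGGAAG
Flt1: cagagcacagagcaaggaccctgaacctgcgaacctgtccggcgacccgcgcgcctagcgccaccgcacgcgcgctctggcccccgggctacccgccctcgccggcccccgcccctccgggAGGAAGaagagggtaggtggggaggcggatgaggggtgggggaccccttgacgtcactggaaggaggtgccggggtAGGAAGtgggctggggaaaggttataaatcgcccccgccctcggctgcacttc
Apln: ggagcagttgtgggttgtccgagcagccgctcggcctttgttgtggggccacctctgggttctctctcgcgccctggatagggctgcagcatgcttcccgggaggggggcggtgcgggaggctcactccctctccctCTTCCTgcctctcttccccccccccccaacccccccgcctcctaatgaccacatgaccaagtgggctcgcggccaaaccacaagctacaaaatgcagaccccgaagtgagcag

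Among the receptors, the co-receptors and TIE2 had the lowest values. All 8 receptors had a value below 0 in IMQ against control, with a median of -1.01, and 6 of them fell (26.9% of all genes tested). Nrp2, a co-receptor of VEGF-C and semaphorins, had 159, 143 and 152 CPM in the control libraries, 39.9, 26.8 and 17.3 in the IMQ libraries and 54.6, 89.9 and 107 in the LYS libraries. The 3 groups did not overlap, and the LYS libraries lay between the others. Nrp2 fell 5.42-fold in the IMQ group, which is -2.44 on the log2 scale (SE 0.27, edgeR adjusted p = 0.000183), and its value was 1.65 in LYS against IMQ (edgeR adjusted p = 0.0591). In LYS against control it was lower, at -0.85 (edgeR adjusted p = 0.0274). That call was lost without control 1 (-0.82), control 2 (-0.90), control 3 (-0.85) or LYS 2 (-0.90), with the replicate block (-0.90) and with all 9 libraries in a single fit (-0.85). Nrp1, its relative that binds VEGF-A, had 76.1, 85 and 67.3 CPM in the control libraries, 29.7, 15.8 and 13.8 in the IMQ libraries and 32.3, 73.4 and 85.1 in the LYS libraries. LYS 1 stayed near the highest IMQ library, and LYS 3 matched the highest control. The log2 fold change was -1.95 in IMQ against control (edgeR adjusted p = 0.000619) and 1.76 in LYS against IMQ (edgeR adjusted p = 0.0610).

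Tek, which encodes TIE2, had 63.4, 67.9 and 47.2 CPM in the control libraries, 22.8, 17.6 and 12.2 in the IMQ libraries and 23.5, 48.2 and 61.9 in the LYS libraries. LYS 1 was just above IMQ 1, and LYS 2 and LYS 3 were within the control range. It fell by 1.76 on the log2 scale in the IMQ group (SE 0.24, edgeR adjusted p = 0.000463), and its value in LYS against IMQ was 1.42 (edgeR adjusted p = 0.0665). Tie1, the related orphan receptor, was not called. It had 45.9, 51.8 and 39.5 CPM in the control libraries, 46.8, 24.6 and 21.8 in the IMQ libraries and 46.1, 63.7 and 85.3 in the LYS libraries, so that IMQ 1 stood among the controls. Its log2 fold change in IMQ against control was -0.56 (edgeR adjusted p = 0.116), and -0.97 and called lower without IMQ 1 (edgeR adjusted p = 0.000887). The kinase receptors of VEGF-A, Kdr and Flt1, had values nearer to 0 than Nrp2, Nrp1 and Tek. For Kdr (VEGFR2, the main signalling receptor) the log2 fold change was -1.04 (SE 0.32, edgeR adjusted p = 0.0215), and for Flt1 (VEGFR1, which also traps the ligand) it was -0.94 (SE 0.24, edgeR adjusted p = 0.0108). Kdr was not called without control 1, control 2, IMQ 2 or IMQ 3. In LYS against IMQ the values were 0.86 for Kdr and 0.94 for Flt1. Aplnr, the apelin receptor, had -0.43 in IMQ against control (edgeR adjusted p = 0.369), with IMQ 1 at 31.6 CPM inside the control range. Without IMQ 1 it was -1.07 and called lower (edgeR adjusted p = 0.00541).

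The ligands held the set's lowest value. Angpt1, the angiopoietin that activates TIE2 and is made mainly by cells around vessels (chromosome 15, 42424723 to 42676977), had 29.8, 29.1 and 15.6 CPM in the control libraries, 3.95, 1.94 and 1.76 in the IMQ libraries and 4.61, 6.89 and 10.5 in the LYS libraries. The 3 groups did not overlap. Angpt1 fell 9.62-fold in the IMQ group, which is -3.27 on the log2 scale (SE 0.38, edgeR adjusted p = 0.000215), and was 1.58 in LYS against IMQ (SE 0.45, edgeR adjusted p = 0.0684). It was still lower in the LYS group than in the control group, by -1.75 (edgeR adjusted p = 0.00947, and at most 0.0490 over the alternatives). An antisense gene shares 14.2% of its exon bases. Angpt2, which endothelial cells make and release, had 9.42, 11.1 and 9.93 CPM in the control libraries, 7.77, 3.65 and 3.96 in the IMQ libraries and 9.49, 11.1 and 14.2 in the LYS libraries. IMQ 1 was the nearest of its group to the controls, and LYS 3 was the highest library. Angpt2 fell by 0.98 on the log2 scale in the IMQ group (edgeR adjusted p = 0.0225), a call lost without control 2, control 3, IMQ 2 or IMQ 3, and was 1.24 in LYS against IMQ (edgeR adjusted p = 0.0684). Markers of pericytes and smooth muscle summed to 1177 to 1224 CPM among controls, 664 to 1377 among IMQ libraries and 973 to 1849 among LYS libraries. Of these markers 4 of 9 tested were called lower and 1 higher in IMQ against control (26.9% and 24.1% of all genes tested), with none of the 10 without counts. Their part in the Angpt1 values was not tested.

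Vegfa, the main growth signal for blood endothelium, was the ligand that was not called lower in IMQ against control. It had 63.9, 78.2 and 46.6 CPM in the control libraries, 62.9, 111 and 110.1 in the IMQ libraries and 130.1, 89.2 and 104 in the LYS libraries. IMQ 1 lay within the control range and IMQ 2 and IMQ 3 above it, and all LYS libraries lay above all controls. The log2 fold change in IMQ against control was 0.58 (SE 0.25, edgeR adjusted p = 0.0771). It was 0.82 and called without IMQ 1 (edgeR adjusted p = 0.00716), and 0.12 without scaling beyond library totals. In LYS against control Vegfa was higher, by 0.78 (SE 0.22, edgeR adjusted p = 0.0332), a call lost without control 1 (0.77) or control 3 (0.60) and with the replicate block (0.80). In LYS against IMQ it was 0.25 (edgeR adjusted p = 0.481), and 0.02 without IMQ 1. Vegfb fell by 1.09 (edgeR adjusted p = 0.00671), Vegfc, the lymphatic growth signal, by 1.50 (edgeR adjusted p = 0.00460) and Apln, the apelin ligand, by 1.37 on the log2 scale (edgeR adjusted p = 0.0137, not called without control 1).

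Of the 5 lymphatic genes 4 fell in the IMQ group, where 26.9% of all genes tested were called lower. Lyve1 (a hyaluronan receptor of lymphatic capillaries that some tissue macrophages also carry, chromosome 7, 110850607 to 110863239) had 61.97, 81.3 and 49.1 CPM in the control libraries, 7.41, 13.2 and 4.40 in the IMQ libraries and 25.8, 45.2 and 41.4 in the LYS libraries. The 3 groups did not overlap, and IMQ 3 was the lowest library. It fell 7.77-fold in the IMQ group, which is -2.96 on the log2 scale (SE 0.36, edgeR adjusted p = 0.000297), and its value in LYS against IMQ was 2.25 (SE 0.41, edgeR adjusted p = 0.0591). In LYS against control it was -0.77 (edgeR adjusted p = 0.0509). The summed macrophage markers, like Lyve1, were lowest in the IMQ group, but the single markers moved with Lyve1 only in part. Cd68, Adgre1, C1qa, C1qb, Csf1r and Mrc1 summed to 1008 to 1461 CPM among controls, 595 to 753 among IMQ libraries and 972 to 2434 among LYS libraries. Of the 6, 3 were called lower in IMQ against control (26.9% of all genes tested), and none was without counts. Mrc1, a marker of resident macrophages, had log2 fold changes of -1.66 in IMQ against control and 2.10 in LYS against IMQ. Cd68 and Adgre1 were among those not called in IMQ against control (-0.23 and -0.38). In LYS against control Adgre1 was 1.14 and not called, where Lyve1 was -0.77. Their part in the Lyve1 values was not tested.

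Mmrn1, a matrix protein of lymphatic endothelium that platelets also hold, had 20.9, 20.4 and 17.4 CPM in the control libraries, 6.86, 5.21 and 3.81 in the IMQ libraries and 9.84, 16.1 and 18.5 in the LYS libraries. The IMQ group overlapped neither of the others. It fell by 1.88 on the log2 scale (SE 0.23, edgeR adjusted p = 0.000268), and its value in LYS against IMQ was 1.55 (edgeR adjusted p = 0.0591). Pdpn, podoplanin, which fibroblasts and keratinocytes can carry as well, had 38.5, 45.8 and 33.8 CPM in the control libraries, 22.2, 18.8 and 17.7 in the IMQ libraries and 41.5, 51.01 and 41.3 in the LYS libraries. The IMQ libraries lay below all others. The log2 fold change was -1.02 in IMQ against control (SE 0.16, edgeR adjusted p = 0.000873) and 1.25 in LYS against IMQ (SE 0.15, edgeR adjusted p = 0.0591). Flt4, which encodes VEGFR3, fell by 0.99 (edgeR adjusted p = 0.0344), a call lost without control 1, control 2, IMQ 2 or IMQ 3, and its log2 fold change was -1.52 without IMQ 1. Prox1, which sets lymphatic identity, was the lowest gene of the set by mean FPKM in every group. Its CPM was 2.61, 3.37 and 2.48 in the control libraries and 2.49, 1.27 and 2.05 in the IMQ libraries. In the LYS libraries it was 1.40, 5.71 and 5.22. The groups overlapped in every comparison, and its log2 fold change was -0.54 in IMQ against control (SE 0.32, edgeR adjusted p = 0.180). Without LYS 1 its value in LYS against control was 0.96 and called (edgeR adjusted p = 0.0202), with 0.55 and an adjusted p of 0.400 when all 3 LYS libraries were kept.

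The selectins, adhesion proteins that activated endothelium shows to leukocytes, had their highest mean CPM in the LYS group. Selp, which platelets also hold, had 10.05, 14.04 and 8.77 CPM in the control libraries, 11.7, 4.10 and 5.35 in the IMQ libraries and 18.2, 35.9 and 22.99 in the LYS libraries. All LYS libraries lay above all others, and IMQ 1 stood among the controls. The log2 fold change was -0.63 in IMQ against control (edgeR adjusted p = 0.188), 1.92 in LYS against IMQ (edgeR adjusted p = 0.0591) and 1.23 in LYS against control (SE 0.29, edgeR adjusted p = 0.0164). The last was called, and was lost without control 1 (1.17), control 3 (1.10) or LYS 2 (0.92). Without IMQ 1, Selp was -1.21 in IMQ against control and called lower (edgeR adjusted p = 0.00549). Antisense genes share 9.93% and 4.21% of the exon bases of Selp, so part of its counts could belong to them. Sele had 9.23, 12.9 and 5.75 CPM in the control libraries, 9.66, 3.95 and 2.86 in the IMQ libraries and 12.6, 13.5 and 20.5 in the LYS libraries. IMQ 1 was again at a control level, and the LYS libraries lay above the IMQ libraries. It was -0.75 in IMQ against control (edgeR adjusted p = 0.197), 1.56 in LYS against IMQ (edgeR adjusted p = 0.0761) and 0.74 in LYS against control (edgeR adjusted p = 0.111). The first was -1.44 and called lower without IMQ 1 (edgeR adjusted p = 0.0105). Ptprc, the pan-leukocyte marker CD45, was at 47.5 to 78.9 CPM among controls, 76.4 to 80.0 among IMQ libraries and 127 to 206 among LYS libraries. Its part in the selectin values was not tested.

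Blood and lymphatic genes had like medians, but their class means differed in the IMQ group. In IMQ against control the median log2 fold change was -0.98 over the 22 blood genes, 18 of which fell and 1 rose, and -1.02 over the 5 lymphatic genes, 4 of which fell. Of all genes tested, 26.9% were called lower and 24.1% higher. In LYS against IMQ the medians were 1.13 and 1.25, and in LYS against control -0.06 and -0.09. As the mean of log2(CPM + 1) over a class, relative to the control mean, the blood genes lay at -0.33, -0.87 and -1.25 in IMQ 1 to 3 and at -0.34, 0.28 and 0.40 in LYS 1 to 3. The lymphatic genes lay at -1.10, -1.40 and -1.68 in IMQ 1 to 3 and at -0.63, 0.07 and 0.07 in LYS 1 to 3. The means of the IMQ group were thus -0.82 for blood and -1.39 for lymphatic genes. The blood mean includes Sox7, with a log2 fold change of 3.32 in IMQ against control. The 5 lymphatic values ranged from -2.96 for Lyve1 to -0.54 for Prox1. Both classes were lower in every IMQ library than in any control library, and in both LYS 1 stood apart from LYS 2 and LYS 3. The FPKM ratio of Prox1 to Cdh5, the defining transcription factor of lymphatic against the junction protein of all endothelium, was 0.00973, 0.0121 and 0.0127 in the control libraries, 0.0152, 0.0141 and 0.0307 in the IMQ libraries and 0.00990, 0.0234 and 0.0195 in the LYS libraries. The difference of the mean log2 ratio was 0.71 in IMQ against control, -0.18 in LYS against IMQ and 0.53 in LYS against control. The exact two-sided permutation p were 0.1, 0.8 and 0.3 (0.24, 0.8 and 0.45 adjusted), and 3 libraries against 3 cannot go below an exact p of 0.1. The ratio rests on few Prox1 counts: 54, 73 and 51 in the control libraries, 41, 17 and 28 in the IMQ libraries and 20, 101 and 91 in the LYS libraries. IMQ 3 had the highest ratio.

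**Figure D4:**
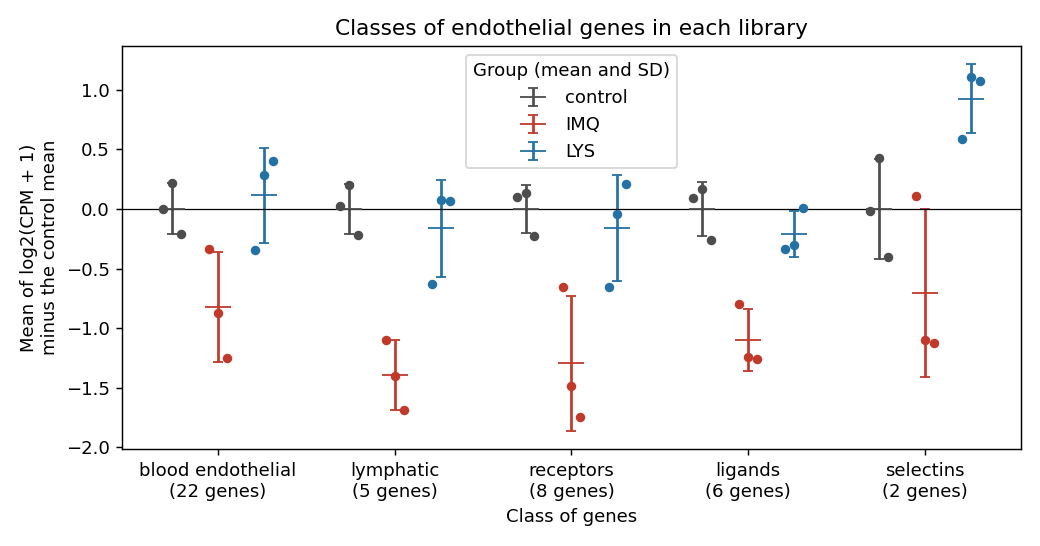
Mean of log2(CPM + 1) over the genes of each class minus the mean of the 3 control libraries, for each library (points) with group means and bars of 1 SD (n = 3). Blood, lymphatic, receptor and ligand genes lie below all controls in all IMQ libraries, and the selectins do not. LYS 1 is the lowest of its group in each class plotted, and all LYS libraries of the selectins lie above the controls.

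Ligands and receptors were compared next. The median over the 6 ligands was -1.23 on the log2 scale in IMQ against control and 1.28 in LYS against IMQ, and over the 8 receptors -1.01 and 1.05. Of the ligands 5 fell and of the receptors 6, beside 26.9% of all genes tested. The ranges were wider for the ligands, from -3.27 for Angpt1 to 0.58 for Vegfa, than for the receptors, from -2.44 for Nrp2 to -0.43 for Aplnr. Pairs that act on the same receptor were set against each other within a library, where the scaling between libraries has no part. The FPKM ratio of Angpt2 to Angpt1 was 0.445, 0.537 and 0.896 in the control libraries, 2.78, 2.66 and 3.17 in the IMQ libraries and 2.91, 2.28 and 1.90 in the LYS libraries. Angpt1 thus exceeded Angpt2 in every control library, and the order was turned in all 6 libraries from IMQ-treated mice. The mean log2 ratio differed by 2.26 in IMQ against control and by 1.96 in LYS against control (exact two-sided permutation p = 0.1 for each, 0.24 adjusted over the 12 ratio tests), and by -0.30 in LYS against IMQ (exact p = 0.3).

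Vegfa was set against its receptor Kdr in the same way. Their FPKM ratio was 2.19, 2.28 and 2.00 in the control libraries, 2.84, 10.4 and 11.5 in the IMQ libraries and 7.35, 3.73 and 3.28 in the LYS libraries. The controls were close together and below all other libraries, while IMQ 1 stood well below IMQ 2 and IMQ 3. The mean log2 ratio differed by 1.70 in IMQ against control, by -0.64 in LYS against IMQ and by 1.06 in LYS against control (exact two-sided permutation p = 0.1, 0.4 and 0.1, and 0.24, 0.48 and 0.24 adjusted). For Vegfc and its receptor Flt4 the ratio was 0.962, 0.998 and 1.65 in the control libraries, 0.672, 1.29 and 0.672 in the IMQ libraries and 1.17, 1.23 and 0.894 in the LYS libraries. These ranges overlapped in all comparisons, with differences of -0.48, 0.38 and -0.10 (exact p = 0.3, 0.4 and 0.8).

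A further list of 44 genes of endothelium and of its Notch, BMP, sphingosine phosphate and VEGF pathways was read the same way. In IMQ against control 43 were tested, of which 20 fell and 5 rose, beside 26.9% and 24.1% of all genes tested. Their median log2 fold change was -0.61, and that of all genes -0.06. In LYS against IMQ none of 43 was called, as for all genes, 37 had values above 0 and the median was 1.14. In LYS against control 7 of 44 were higher and 2 lower, beside 15.1% and 12.9% of all genes tested. Angptl4, an inhibitor of lipoprotein lipase that also acts on vessels, had the lowest value. It had 215, 242 and 129.9 CPM in the control libraries, 32.6, 4.77 and 5.57 in the IMQ libraries and 28.4, 25.8 and 53.1 in the LYS libraries. IMQ 1 was well above IMQ 2 and IMQ 3, and all IMQ and LYS libraries were below all controls. Its log2 fold change was -3.76 in IMQ against control (edgeR adjusted p = 0.00249) and -2.45 in LYS against control (edgeR adjusted p = 0.00255). Hey2, a Notch target of arterial endothelium, fell by 2.63 and Cd34, a sialomucin of capillaries and progenitors, by 2.11 in the IMQ group. The genes that rose most were Hif1a (the oxygen-regulated factor upstream of Vegfa), with 1.95 (edgeR adjusted p = 3.25e-05), Sema3f (a neuropilin ligand), with 1.79 (edgeR adjusted p = 2.85e-05), and Thbs1 (an inhibitor of vessel growth), with 1.74 (edgeR adjusted p = 0.000207). Hif1a and Sema3f were also higher in LYS against control, by 1.62 and 1.31, as was Myct1, an endothelial membrane protein, by 1.23, while Hey2 was lower by -1.46.

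Markers of other cell types moved beside the endothelial genes. The 22 blood genes summed to 1049 to 1478 CPM among controls, 541 to 972 among IMQ libraries and 978 to 1663 among LYS libraries. The 5 lymphatic genes summed to 115 to 167, 33.1 to 50.8 and 89.3 to 132 CPM. Fibroblast markers (Col1a1, Col1a2, Col3a1, Dcn, Lum, Pdgfra and Dpt) summed to 22103 to 28184, 3368 to 10711 and 9207 to 17880 CPM, and all 7 were called lower in IMQ against control. Skeletal muscle markers (4 of 4 called lower) summed to 7483 to 8208, 1321 to 3446 and 3285 to 6935 CPM, and adipocyte markers (4 of 4 lower) to 1126 to 3154, 83.8 to 409 and 377 to 1050 CPM. Hemoglobin genes of red cells (4 of 4 lower) summed to 332 to 874, 140.1 to 311 and 437 to 732 CPM. Beside these counts, 26.9% of all genes tested were called lower in IMQ against control. The IMQ mean was the lowest in each of these lists and no marker was without counts in a group, while keratinocyte markers were highest in IMQ. The part of these cell types in the endothelial values was not tested.

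**Figure D5:**
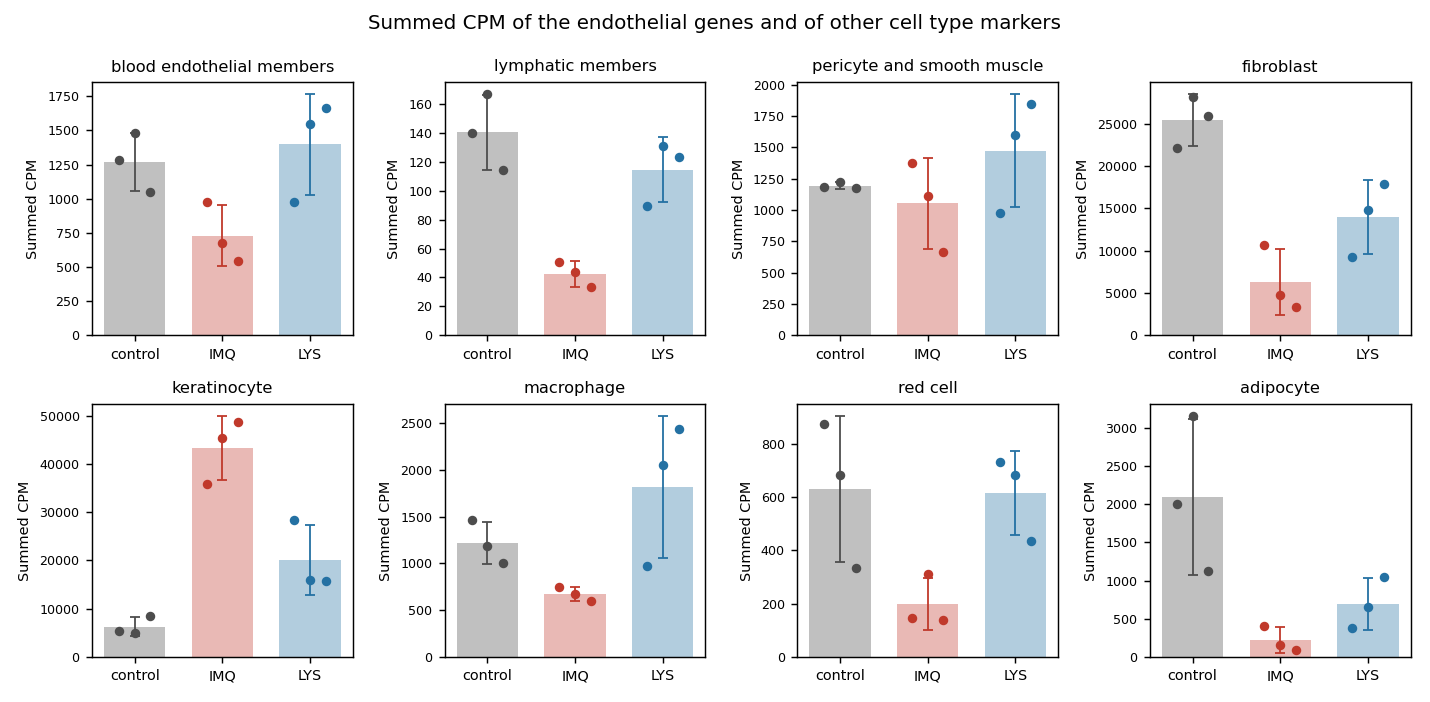
Summed CPM of the blood and lymphatic genes and of markers of 6 other cell types in each library (points), with bars for the group mean and error bars of 1 SD (n = 3), each panel with its own axis from 0. The means of fibroblast, red cell and adipocyte markers are lowest in the IMQ group like those of the endothelial genes, and keratinocyte markers are highest there, at 35922 to 48643 CPM.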

How the data were processed

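RNA of 9 back skin samples was sequenced (3 libraries per group). The authors deposited, for 29205 Ensembl genes and each library, whole-number read counts without normalization. They also deposited FPKM, which divide each count by the gene's length and the library total. The implied length equalled the GENCODE M21 exon length within 0.1% for 98.5% of the 29107 genes found there. The submitters' processing notes name HISAT2, HTSeq 0.13.5 and GRCm38, without giving their roles. Per the labels, TRIzol extraction and the NEBNext Ultra kit were used, and whether counting used strand is not given in the sources used here. No column was left without a sample.

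Counts were tested with edgeR 4.0.16 (R 4.3.3): TMM scaling, filterByExpr, the quasi-likelihood test on the 6 libraries of each comparison, Benjamini-Hochberg adjustment over all genes tested, and the study's thresholds of 0.05 on adjusted p and 0.58 on absolute log2 fold change. The standard error is the log2 fold change divided by the root of the F statistic. CPM were scaled over all 9 libraries, with a pseudocount of 1 for class means. Ratios of FPKM were tested with exact permutations of libraries. In simulated data made from the IMQ and LYS libraries (15460 genes), edgeR recovered 46% of the genes changed by 1 on the log2 scale and 88% of those changed by 2, with 2 false calls. The simulation gave genes of like level the same spread and held no library that stood apart. LYS against IMQ itself called 0 genes, so these shares cannot be carried over to it. Alternatives were DESeq2 1.42.0, RLE scaling, no scaling beyond library totals, no filter, all 9 libraries in a single fit, a replicate block, and each library left out. Leaving out IMQ 1 and LYS 1 together and the unadjusted p were added after seeing the data.

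All members are named, and of the pathway list the 3 largest rises and falls among calls whose groups do not overlap. The members and lists were chosen with earlier results of these data known. Ccl21a, which stands on more than 1 row of the table, and the platelet marker Gp1bb were not used. No library repeated another of its group: their counts were further apart than sampling would give (chi-square over degrees of freedom 18.4 to 109). Promoters were taken from RefSeq (GRCm38.p6). Python 3.11.15 with matplotlib 3.10.9 drew the figures.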

Additional observations from a re-analysis of the deposited data

How the results depend on the processing

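With a single library left out, the genes called lower in IMQ against control numbered 21 to 34 and those called higher 1 to 2. For LYS against IMQ these counts were 0 to 1 and 0 to 29, and for LYS against control 1 to 2 and 1 to 8. The medians in IMQ against control ranged from -1.28 to -0.82 for blood genes, -1.52 to -0.93 for lymphatic genes, -1.59 to -1.04 for ligands and -1.52 to -0.79 for receptors, the lowest of each without IMQ 1. In LYS against IMQ they ranged from 1.03 to 1.66 for ligands and 0.85 to 1.57 for receptors. The log2 ratio of Prox1 to Cdh5 in LYS against IMQ ranged from -0.43 to 0.19, being above 0 without IMQ 3 (0.18) or LYS 1 (0.19), and that of Vegfc to Flt4 in LYS against control from -0.24 to 0.15, above 0 without control 3 (0.15) or LYS 3 (0.043). The cause was not tested for any of these.

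For LYS against IMQ, DESeq2 called 28 genes higher and 1 lower, the single fit of 9 libraries 25 and 1, no filter 25 and 1, and the unadjusted p 31 and 1, and without both IMQ 1 and LYS 1 the counts were 36 and 1. With RLE scaling, and without scaling beyond library totals, they were 0 and 0. Without scaling, the medians in IMQ against control were -1.41 for blood genes, -1.45 for lymphatic genes and -1.65 for ligands, where the median of all genes was -0.51. In LYS against control the single fit called 1 gene lower. Same-numbered libraries had correlations of their deviations of -0.460 to 0.200, and differently numbered ones of -0.295 to 0.470. These values show no sign of pairing by number, but so few, taken within groups of 3, cannot exclude it. With the replicate block, the counts called higher and lower were 1 and 30 in IMQ against control, 0 and 0 in LYS against IMQ, and 2 and 1 in LYS against control. Over all single genes and alternatives, 1161 values kept their side of the thresholds, 156 passed them newly, 51 no longer passed, and 0 called values turned direction. Depth was 14658645 counts or more. Prox1, the lowest gene by mean FPKM, had the largest SE of the set in LYS against IMQ (0.56) and in LYS against control (0.47). In IMQ against control its SE was 0.32, and that of Sele was the largest (0.47).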
